A study of Mus musculus with 2 samples.

Results

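The S100 genes encode a family of small calcium-binding proteins, and 10 of them were followed here: S100a1, S100a3, S100a4, S100a5, S100a6, S100a10, S100a11, S100a13, S100a16 and S100b. They were listed by gene name, and the table's RefSeq identifiers were mapped to mouse symbols to find them. All 10 were found among the 16881 transcripts of the deposited table. RNA sequencing had been done on 2 cultures of immortalised mouse embryonic fibroblasts of strain C57BL/6, 1 with intact p65 (genotype p65+/+) and 1 lacking it (genotype p65-/-). p65, the product of Rela, is a subunit of the transcription factor NF-kB. The question set by the design is how expression differs in the presence and absence of p65, and the labels give neither a stimulus nor a clone number.

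S100 proteins carry a pair of EF-hand calcium-binding loops and work mostly as dimers. Calcium opens a surface through which they bind other proteins inside the cell, such as annexins and non-muscle myosin. Some are also released and act on cells through receptors, among them RAGE (gene Ager) and TLR4, which can activate NF-kB. In the mouse most of the genes lie together on chromosome 3, and fibroblasts are known for S100A4 (also called metastasin or Fsp1), S100A6, S100A10 and S100A11.

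Each genotype had 1 library, which allows no p-value and no check against replicates for any difference below. Ratios are p65-null over wild-type normalised CPM (fragments scaled to a common library total). Their 95% Clopper-Pearson intervals, in brackets, cover counting error in these 2 libraries only. The libraries held 20794475.5 and 15441394 fragments, a single mate counting as 0.5. Rela itself was at 90.5 CPM with p65 and 13.1 CPM without it, 6.90-fold lower (5.96 to 8.03), and the labels do not say which exons the null allele lacks. The cultures also differed in sex-linked RNA: Xist had 956 wild-type and 2 p65-null fragments, and the Y-linked gene Kdm5d had 0 and 207. Cdkn2a, a tumour suppressor gene often lost when fibroblasts are immortalised, had 1693.5 and 3 fragments. The loss of p65 and the origin of each culture therefore cannot be told apart.

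Of 12 fibroblast marker genes, 12 were measured in the libraries, with summed levels of 13815 CPM in wild-type and 27074 CPM in p65-null cells. Of these, 5 were higher by 2-fold or more without p65 and 1 lower, beside 12.2% and 13.7% of all measured genes. The largest gains in CPM were in the collagen genes Col1a2 (4700) and Col1a1 (3622) and in Sparc (1946). The proteoglycan gene Lum had the largest ratio, 23.2-fold (9.56 to 73.4), but rests on 5 wild-type and 83 p65-null fragments. The only fibroblast marker lower by 2-fold or more was Thy1, a surface marker of many fibroblasts, at 8.60-fold (7.26 to 10.3). Markers of other cells in which S100 genes are prominent were also looked up. Of 8 epithelial markers looked up, 6 were found and 0 passed the expression minimum, with summed levels of 0.118 and 2.81 CPM, and Epcam had 0 and 1, Cdh1 0 and 11 and Krt18 0 and 23 fragments. Of 8 Schwann cell and glial markers, 6 were found and 1, Mbp, passed, with summed levels of 3.68 and 2.51 CPM and 2 and 1 fragments of Sox10. Of 8 myeloid markers, 6 were found and 3 passed, with summed levels of 20.7 and 10.001 CPM, and Ptprc had 2 and 0 fragments. Most of the wild-type sum was Cd14, at 17.0 and 4.39 CPM. Csf1r was also lower, with 44 and 16 fragments, while Cd68 went the other way, with 29 and 61.5. Chondrocyte markers came to 67.8 and 147 CPM with 3 of 4 found measured, and moved in opposite directions. Col2a1, the cartilage collagen, was at 31.1 and 129 CPM, 4.14-fold higher (3.79 to 4.53), while Acan, which encodes aggrecan, had 299 and 5 fragments and was 42.7-fold lower (18.1 to 133). Endothelial markers came to 3.44 and 2.24 CPM with 1 of 6 found measured, and adipocyte markers to 6.25 and 3.04 CPM with 1 of 2. The part of these differences in the results below was not tested.

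Promoter sequence is shown for 3 genes: S100a4 and S100a16, which had the largest ratios of the family, and S100a6, their abundant neighbour, for contrast. Sequences are from RefSeq, build GRCm38.p6, plus strand, and end at the base before the transcription start, or before the first annotated exon for S100a6. They cover chr3:90603520-90603769, chr3:90540896-90541145 and chr3:90612644-90612881. For S100a16, which has 2 annotated starts in that table, the window next to the counted transcript is given. Capitals mark a match to TATAAA (the TATA box) in S100a4 and to TGANTCA (the AP-1 site) in S100a16.
S100a4: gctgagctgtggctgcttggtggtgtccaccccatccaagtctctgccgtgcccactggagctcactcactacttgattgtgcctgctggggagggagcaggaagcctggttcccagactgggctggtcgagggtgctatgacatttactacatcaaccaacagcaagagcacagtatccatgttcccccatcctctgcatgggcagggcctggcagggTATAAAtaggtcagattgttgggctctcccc
S100a16: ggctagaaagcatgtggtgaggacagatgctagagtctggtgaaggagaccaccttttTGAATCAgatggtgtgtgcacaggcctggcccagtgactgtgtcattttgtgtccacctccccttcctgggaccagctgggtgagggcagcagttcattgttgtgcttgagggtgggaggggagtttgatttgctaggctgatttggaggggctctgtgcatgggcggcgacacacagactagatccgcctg
S100a6: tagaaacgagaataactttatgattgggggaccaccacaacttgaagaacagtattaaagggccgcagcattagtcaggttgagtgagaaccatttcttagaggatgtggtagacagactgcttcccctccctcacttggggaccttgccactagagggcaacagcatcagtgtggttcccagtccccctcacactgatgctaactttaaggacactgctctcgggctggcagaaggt

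Both strands of the 250 bases before each start were searched for an NF-kB-like motif (GGG and TTCC with any 3 bases between), for TGANTCA and for TATAAA. No matches of different motifs overlapped in the members. A promoter was listed for 9 of the 10 members. A member was counted once over all its listed starts, 4 for S100a3 and 2 for S100a16. The shares of all promoters count each start, so the units differ. The NF-kB-like motif was found in 0 of these 9 members and in 4.65% of all 32851 listed promoters, which says only that these letters are not in these windows. TATAAA was found in 2 members, S100a4 and an alternative start of S100a3, and in 12.4% of all promoters. TGANTCA was found in 2 members, S100a11 and S100a16, and in 6.75% of all promoters. In S100a4 the TATAAA match began 31 bases before the start, and in S100a16 the TGANTCA match began 192 bases before it.

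Across the family, the levels of S100a16, S100a4 and S100a13 were more than 2-fold higher without p65. A gene counted as measured when its CPM averaged 1 or more, and 8 of the 10 members did. Of these 8, 3 reached a 2-fold higher level, 0 a 2-fold lower level, and 5 stayed between. Over all 12135 measured genes, 12.2% reached the higher and 13.7% the lower limit. A 4-fold higher level was reached by 2 members and by 4.38% of all measured genes. In RNA from whole cultures, more cells expressing a gene and more RNA per cell cannot be told apart. The median log2 ratio was 0.60 for the 8 members and -0.03 for all measured genes. The 3 higher members stayed at least 2-fold higher in each of the 11 alternative treatments of the data. The signs of S100a3, S100a6, S100a10 and S100a11 did not hold across them, as given with each gene.

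**Figure D1:**
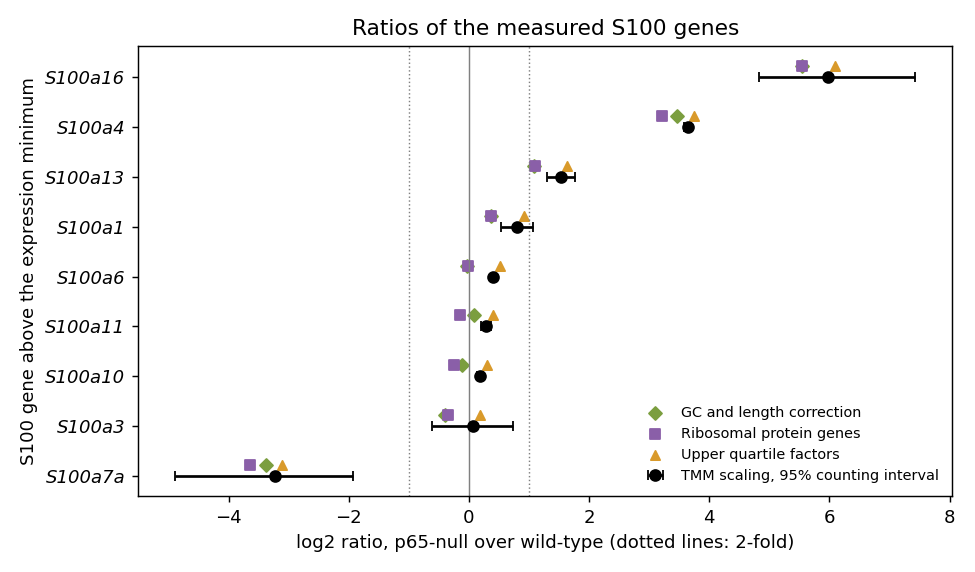
The log2 ratio of p65-null over wild-type CPM (horizontal axis) for the 8 measured members and S100a7a (vertical axis), with the 95% counting interval in black and 3 other scalings in colour. S100a16, S100a4 and S100a13 lie right of the 2-fold line under all 4, S100a7a lies left of it, and the others stay within 2-fold.

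S100a4 (NM_011311, chromosome 3, 90603770 to 90606045, where coordinates here and below span the whole annotated gene and the identifier is the counted transcript) encodes a protein that binds non-muscle myosin IIA and is widely used as a fibroblast and metastasis marker. It had 2565 wild-type and 22844 p65-null fragments, or 121 CPM (116 to 126) and 1508 CPM (1489 to 1528). The p65-null library was the higher by 12.5-fold (11.96 to 12.99), a log2 ratio of 3.64. With the ratio corrected for transcript GC content and length it was 3.46, and with the libraries scaled to their ribosomal protein genes it was 3.22. Per kilobase of transcript, S100a4 moved from rank 299 among the 11990 measured genes with a known transcript length in wild-type cells to rank 14 in p65-null cells. Its gain in CPM was the 11th largest of all measured genes, and its ratio ranked 208 of 12135 from the top.

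S100a16 (NM_026416, 90537254 to 90543151) encodes a broadly expressed member with a single functional calcium-binding loop. It had 6 wild-type and 269.5 p65-null fragments, or 0.283 CPM (0.104 to 0.616) and 17.8 CPM (15.7 to 20.05). That is 62.9-fold higher without p65 (28.5 to 173), with a wide interval because the wild-type value rests on 6 fragments. The log2 ratio of 5.97 was 5.55 after the GC and length correction, and 55 of the 12135 measured genes had a larger one. Both S100a4 and S100a16 were over 10-fold higher, which held for 1.96% of all measured genes.

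S100a13 (NM_009113, 90514233 to 90524581) encodes a protein that takes part in the release of the growth factor FGF1, which lacks a secretion signal. It had 226.5 wild-type and 465.5 p65-null fragments, or 10.7 CPM (9.34 to 12.2) and 30.7 CPM (28.0 to 33.7). The ratio was 2.88-fold (2.45 to 3.39), a log2 ratio of 1.52, and 1.08 after the GC and length correction. S100a1 (NM_011309, 90511034 to 90514330), best known as a regulator of calcium handling in heart muscle, starts next to it on the opposite strand. It had 224 and 278.5 fragments, or 10.6 CPM (9.23 to 12.0) and 18.4 CPM (16.3 to 20.7), a 1.74-fold difference in the same direction (1.45 to 2.08). Its log2 ratio of 0.80 was 0.37 after the correction. The annotated spans of S100a1 and S100a13 overlap by 98 bases, and the labels do not say if strand was used, so reads there may have gone to either gene.

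S100a6, S100a10 and S100a11, which were abundant in both libraries, differed far less than S100a4. S100a6, or calcyclin (NM_011313, 90612894 to 90614414), a growth-associated protein, had 23754.5 and 22445 fragments, or 1121 CPM (1106 to 1135) in wild-type and 1482 CPM (1462 to 1501) in p65-null cells. S100a10 (NM_009112, 93555117 to 93564645), the calcium-insensitive light chain of the annexin A2 tetramer, had 6731.5 and 5457.5 fragments, or 318 CPM (310.0 to 325) and 360.3 CPM (351 to 370.0). S100a11 (NM_016740, 93520496 to 93526288), a partner of annexin A1, had 2866 and 2490.5 fragments, or 135 CPM (130.3 to 140.2) and 164 CPM (158 to 171). The p65-null value was the higher for all 3 genes under the main scaling, with non-overlapping counting intervals, by 1.32-fold (1.30 to 1.35), 1.13-fold (1.09 to 1.18) and 1.22-fold (1.15 to 1.28). The direction depended on the scaling: relative to ribosomal protein genes the log2 ratios were -0.02, -0.24 and -0.14, and after the GC and length correction -0.04, -0.12 and 0.08. A pseudogene of S100a11 is annotated, S100a11-ps, and the labels do not say how reads of near-identical copies were handled.

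The remaining members were rare. S100a3 (NM_011310, 90560356 to 90602706), a zinc- and calcium-binding protein of the hair cuticle, had 46 wild-type and 34.5 p65-null fragments. Its levels of 2.17 CPM (1.59 to 2.89) and 2.28 CPM (1.58 to 3.17) overlapped, with a log2 ratio of 0.07 (-0.61 to 0.74) that was -0.41 after the correction and -0.35 relative to ribosomal protein genes. S100b (NM_009115, chromosome 10, 76253836 to 76261319), the glial member, had 4 and 5.5 fragments, a log2 ratio of 0.94 (-1.20 to 3.24), and was below the expression minimum. S100a5 (NM_011312, 90606480 to 90611784), known from olfactory neurons, had 1 and 3 fragments, and no ratio is given. No difference in these 3 genes was detectable at this depth.

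**Figure D2:**
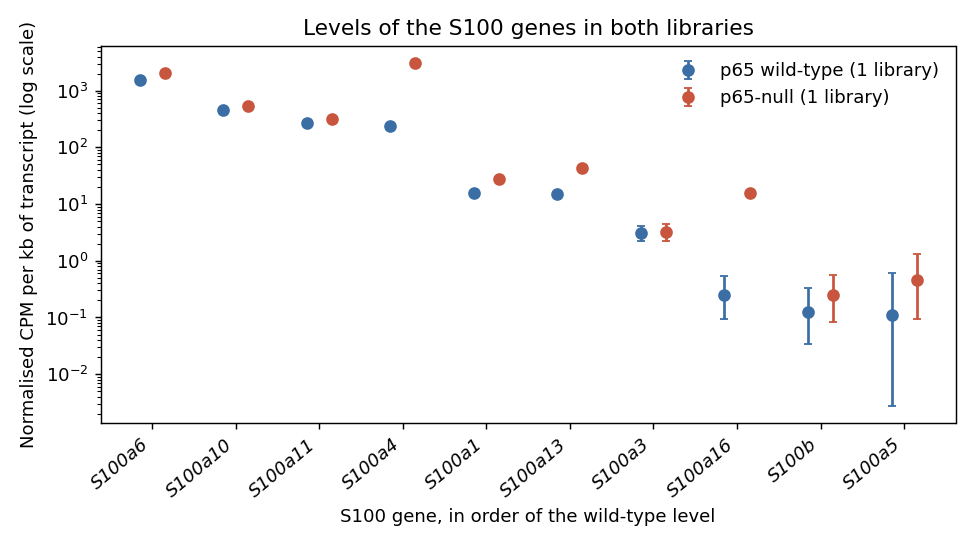
Level of each of the 10 members as normalised CPM per kilobase of transcript (vertical axis, log scale) in the wild-type (blue) and p65-null (red) library, 1 library each, with 95% counting intervals. S100a4 stands 4th in wild-type and first in p65-null cells, and S100a16 rises from 0.252 to 15.8.

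Levels of different members can be compared per kilobase of transcript, and on that scale their order differed between the libraries. In wild-type cells S100a6 led at 1533 CPM per kilobase, followed by S100a10 at 464, S100a11 at 265 and S100a4 at 243. S100a1 and S100a13 followed at 15.6 and 14.9, a ratio of 1.04 (0.864 to 1.26) that does not separate them. S100a3 was at 3.05, and S100a16, S100b and S100a5 were between 0.252 and 0.109 with no separation from the next in the order. In p65-null cells S100a4 came first at 3028, followed by S100a6 at 2027, S100a10 at 526 and S100a11 at 322. S100a13 at 43.0 then stood above S100a1 at 27.2, S100a16 at 15.8 and S100a3 at 3.20, each apart from the next beyond counting error. S100a5 and S100b, at 0.460 and 0.245, were not separated.

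A ratio of 2 genes within a library does not depend on the scaling between libraries. Per kilobase, S100a4 stood at 0.159 of S100a6 in wild-type cells (0.152 to 0.165) and at 1.49 in p65-null cells (1.47 to 1.52). S100a16 stood at 0.0169 of S100a13 (0.00612 to 0.0373) and at 0.369 (0.316 to 0.429). S100a13 was at 0.957 of S100a1 in wild-type cells (0.792 to 1.16) and at 1.58 in p65-null cells (1.36 to 1.84). Each of these pairs was thus changed unequally between the libraries.

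The make-up of the family's RNA differed accordingly. S100a6 held 65.2% of all S100 fragments in the wild-type library (64.7% to 65.7%) and 41.3% in the p65-null library (40.9% to 41.8%). S100a4 held 7.04% (6.78% to 7.31%) and 42.1% (41.7% to 42.5%). Together the 10 genes came to 1718 and 3584 CPM, 2.09-fold higher without p65 (2.06 to 2.11), and took 0.175% and 0.352% of all fragments. With S100a4 left out, the sum of the other 9 was 1.30-fold higher (1.28 to 1.32), so the doubling rests on that gene.

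Family members outside the 10 included 1 measured gene, S100a7a (NM_199422, 90651925 to 90658130), related to the skin protein psoriasin. It had 65.5 wild-type and 5 p65-null fragments, or 3.09 CPM (2.39 to 3.93) and 0.330 CPM (0.107 to 0.770). It was 9.36-fold lower without p65 (3.81 to 29.8), against the direction of S100a4 and S100a16. S100a8, a subunit of the neutrophil protein calprotectin, had 1 and 0 fragments, the 0 having an interval of up to 0.244 CPM. S100a14, an epithelial member, had 1 fragment in each library. S100a2, S100a7l2, S100a9, S100g and S100z were looked up and not found among the deposited transcripts.

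Some genes next to each other had unlike ratios, and others did not. S100a3 ends 1063 bases before S100a4 and S100a6 starts 6848 bases after it, yet their log2 ratios were 0.07 and 0.40 beside 3.64. The S100a3 value rests on few fragments (-0.61 to 0.74). The adjoining S100a1 and S100a13 were both higher, at 0.80 and 1.52, and S100a11 and S100a10 were alike, at 0.28 and 0.18. S100a16 lies 60.6 kilobases from S100a4, and S100a14, with 1 fragment in each library, lies between S100a13 and S100a16. S100a11 and S100a10, within 2-fold, lie 2914 kilobases or more away, beyond the skin envelope genes of the epidermal differentiation complex. Among non-S100 genes from 250 kilobases before S100a1 to 250 kilobases after S100a10 (chromosome 3, 90261034 to 93814645), 32 were in the table and 11 measured. Of these, 5 were 2-fold or more higher and 0 lower, beside 12.2% and 13.7% of all measured genes.

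Among the neighbours, the fatty acid transport protein gene Slc27a3 was 31.1-fold higher (21.9 to 45.9), with 32 and 712 fragments, and the natriuretic peptide receptor gene Npr1 5.34-fold (3.04 to 9.91), with 16 and 61. Genes beside Slc27a3 lay near 0: Gatad2b, a chromatin repressor subunit, had a log2 ratio of 0.00 and the Integrator subunit gene Ints3 of 0.11. Crtc2, a CREB coactivator at the far end of the region, next to Dennd4b, was at 0.23. Between Npr1 and S100a1, Ilf2, which encodes an RNA-binding protein, was at -0.09, the mRNA export gene Chtop at -0.07 and the vesicle gene Snapin at 0.61. Dennd4b was 2.13-fold higher (1.59 to 2.87), a log2 ratio of 1.09 that was 0.83 after the GC and length correction and 0.67 relative to ribosomal protein genes.

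**Figure D3:**
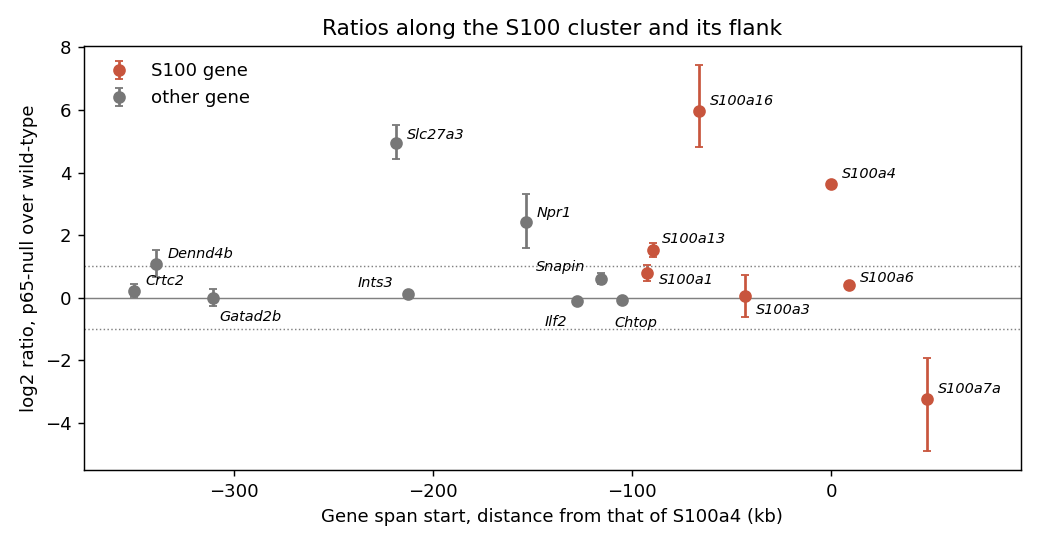
The log2 ratio of p65-null over wild-type CPM (vertical axis) against the start of each measured gene's span, in kilobases from that of S100a4 (horizontal axis), with 95% counting intervals. The highest values are at S100a16, Slc27a3 and S100a4. Npr1, S100a13 and Dennd4b are also above the 2-fold line, with S100a1, next to S100a13, at 0.80. Genes such as Chtop and S100a3 lie near 0, and S100a7a is low.

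Proteins that S100 members bind were looked at next, as a list of 29 annexins, receptors and other partners drawn up by function. Of 28 found, 25 were measured, and 3 were higher by 2-fold or more, 2 lower by 2-fold or more and 20 between, beside 12.2% and 13.7% of all genes. The list's median log2 ratio was 0.08. The higher genes were Myh10, the heavy chain of non-muscle myosin IIB, at 3.06-fold (2.98 to 3.14), the plasminogen activator gene Plat at 2.37-fold (2.17 to 2.59) and Anxa8 at 2.21-fold (1.76 to 2.79). The lower ones were Cacybp, which encodes the protein named for binding calcyclin (S100A6), at 3.27-fold (2.99 to 3.57), and Anxa3 at 3.16-fold (3.02 to 3.31). After the GC and length correction Cacybp and Anxa8 were within 2-fold, at -0.91 and 0.997. Relative to ribosomal protein genes Plat and Anxa8 were, at 0.82 and 0.72. With the correction Tlr4 and Plaur passed 2-fold instead, moving from 0.08 to 1.12 and from -0.99 to -1.34. The counts therefore stayed at 3 higher and 2 lower.

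For the partner of each abundant member, Anxa2, which binds S100A10, had 24025 and 18794.5 fragments and a log2 ratio of 0.13, or -0.17 after the correction. S100a10 stood at 0.592 of Anxa2 per kilobase in wild-type cells (0.576 to 0.608) and at 0.613 in p65-null cells (0.595 to 0.632), and these intervals overlap. Ahnak, a large scaffold that binds the S100A10 and annexin A2 complex, was at -0.34, or 0.12 after the correction. Anxa1, a partner of S100A11, had 14798.5 and 5665.5 fragments and a log2 ratio of -0.90, so that S100a11 moved from 0.634 of Anxa1 (0.609 to 0.660) to 1.44 (1.37 to 1.51). Myh9, the myosin IIA heavy chain that S100A4 binds, was at -0.14, and S100a4 went from 0.617 of Myh9 per kilobase (0.592 to 0.641) to 8.49 (8.36 to 8.63). S100a6 was 24.9 times Cacybp per kilobase in wild-type cells (24.0 to 25.9) and 107.6 times in p65-null cells (99.2 to 117). The GC and length correction lowered the change in this ratio from 4.32-fold to 1.83-fold, and that of S100a11 over Anxa1 from 2.27-fold to 1.49-fold.

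Anxa6 had a log2 ratio of 0.44 and Anxa11, a further annexin that binds S100A6, of 0.22 (-0.11 to 0.56), or -0.14 after the correction. Of the receptors, Tlr4 was at 0.08 (-0.28 to 0.44) with 153 and 115.5 fragments, and at 1.12 after the correction. Ager, which encodes RAGE, had 7 and 14 fragments and was below the minimum, with a log2 ratio of 1.48 (0.08 to 3.03). Fgf1, the cargo of the S100A13 release route, had 2 and 0 fragments, so no ratio is given.

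**Figure D4:**
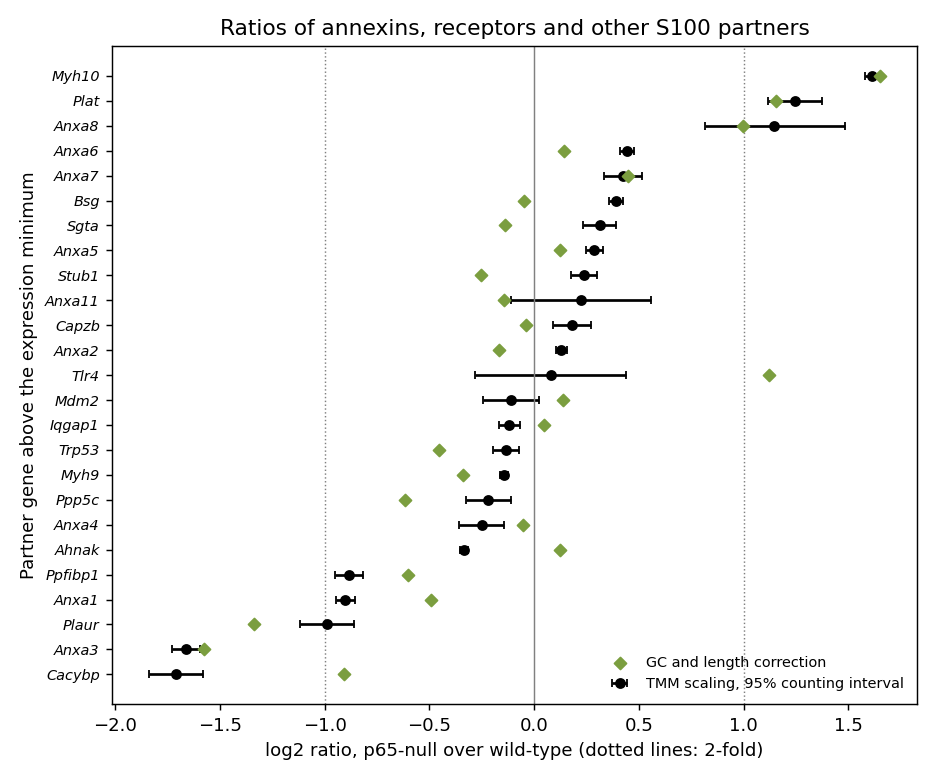
The log2 ratio of p65-null over wild-type CPM (horizontal axis) for the 25 measured partner genes (vertical axis), with 95% counting intervals in black and the value corrected for GC content and length in green. Of them, 20 lie between the 2-fold lines; Myh10, Plat and Anxa8 lie right of them and Cacybp and Anxa3 left.

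Other genes with EF-hand domains gave a comparison by protein fold. Of 51 listed, 48 were found and 41 measured, of which 4 were higher and 2 lower by 2-fold or more and 35 between, again beside 12.2% and 13.7% of all genes. The median log2 ratio of the S100 members was 0.60 in the main scaling and lower after the GC and length correction, as given below. That of the other EF-hand genes was 0.00 in the main scaling, and the difference was not tested. The higher genes were the matrix proteins Smoc2 at 3.86-fold (3.67 to 4.06) and Sparc at 2.22-fold (2.19 to 2.25), the endoplasmic reticulum protein Rcn3 at 2.404-fold (2.32 to 2.49) and the myosin light chain Myl12b at 2.05-fold (1.86 to 2.27). Of these, Smoc2 alone stayed past 2-fold after the GC and length correction or relative to ribosomal protein genes. Myl12a and Myl12b are near-identical neighbours, so their reads are uncertain. Myl12b had 683.5 and 1002.5 fragments, while Myl12a had 19348 and 7540 and went the other way, 1.83-fold lower (1.79 to 1.88). The lower genes were the smooth muscle light chain Myl9 at 3.11-fold (2.90 to 3.33) and Smoc1 at 2.35-fold (1.79 to 3.12).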

How the data were processed

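Total RNA was sequenced in 1 library per genotype. The table calls its values raw counts. The values in the deposited file are a scaled signal, not whole numbers, and sum to 18117934 and 18117930. Per the submitters' processing notes, bcl2fastq 2.16, STAR 2.4, HOMER, edgeR and mm10 were used; roles and the counting rule are not stated there. All low values checked (13928 and 13994) were whole multiples of a step of 0.4356 (wild-type) or 0.5867 (p65-null), within 0.0055, and 1 fragment was taken as 2 steps. No count test was possible without replicates. Protein sequences were not used here.

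Of the transcripts, 16743 were matched to symbols through RefSeq genes of GRCm38.p6, 83 through GENCODE M21, and 55 not. TMM factors were 1.02 and 0.981 (edgeR 4.0.16, R 4.3.3). A 0 was replaced by 3 fragments, and no ratio was formed with both libraries at or under that. Members and lists were chosen with earlier results of these data known. Named genes were all S100 genes, set partners, measured neighbours, Rela and, per other list, up to 4 higher and 4 lower by the interval end nearest 0. Receptors, single markers, Cdkn2a and sex-linked and skin genes were added after values were seen. The 11 alternatives were 4 scalings (DESeq2 1.42.0 size factors, totals, upper quartile, ribosomal protein genes), no minimum or 5 CPM, a prior count of 2, interval ends, a loess correction for GC content and length (span 0.3), reads for fragments and leaving out the 10 most abundant genes.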

Additional observations from a re-analysis of the deposited data

How the results depend on the processing

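No paired analysis was possible because each genotype had 1 library, and none could be left out in turn. The counts of S100 members at least 2-fold higher (3) and lower (0) were the same under all 11 alternatives. Scaling to ribosomal protein genes shifted the median of all genes by -0.43 and upper quartile scaling by 0.11, and with the former, higher genes made up 22.1% of those 2-fold apart in place of 46.9%. With the latter, or with the GC and length correction, they made up 55.0%. Under ribosomal scaling the median of the members was 0.18, their summed log2 ratio 0.64 (1.06 in the main scaling), Rela was at -3.21, partner genes had 1 higher and 5 lower, other EF-hand genes 1 and 7, and all genes 876 and 3088. The summed ratio was 1.00 with total counts and 1.17 with upper quartile factors. After the GC and length correction the median of the members was 0.23, Rela was at -3.21, 1 EF-hand gene was higher and 1094 genes were lower. By the interval end nearest 0, all genes numbered 965 higher and 1104 lower, and 1 EF-hand gene was lower. With no minimum, 2230 genes were higher, as were 7 EF-hand genes and 9 neighbours, with 5 neighbours lower; with 5 CPM, 924 genes were higher. Under the last 3 settings more or fewer genes could pass by construction; for the others the cause was not tested. The GC and length correction of the summed ratio was not run. Depth limits S100a3, S100a5, S100b and the wild-type value of S100a16.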

Other observations

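Between the 2 groups of S100 genes on chromosome 3 lie the Sprr, Lce and other envelope genes of the epidermal differentiation complex, which build the outer layer of skin. Sprr1a, which encodes a cross-linked envelope protein and is also known from injured nerve and stressed cells, had 54 wild-type and 159.5 p65-null fragments and was 4.13-fold higher (3.02 to 5.74). Sprr2k was 3.90-fold higher (2.78 to 5.57), with 47 and 131 fragments, though Sprr2 genes are near-identical copies. The late envelope genes Lce1h and Lce1g went the other way with low counts, 20.5 against 0.5 and 17 against 0 fragments, as did Crct1 with 15 against 2. These 3 were below the expression minimum and were picked after their values were seen. Other genes of the complex, also below the minimum, did not follow this split. Sprr2g was lower, with 17 wild-type and 4 p65-null fragments, while Ivl had 1 and 7 and Prr9 3.5 and 14.5. S100a7a, the skin-type S100 gene, was lower without p65.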
